A study of Mus musculus with 94 samples.

Results

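The matrix metalloproteases, the ADAM and ADAMTS proteases, the ADAMTS-like proteins and the tissue inhibitors of metalloproteases were examined in single perivascular adipose tissue-derived stem cells (PV-ADSCs). The members were the rows of the expression table whose symbol was Mmp, Timp, Adam, Adamts or Adamtsl followed by a number and at most 1 letter. This gave 44 of 16069 genes, with 11 Mmp, 4 Timp, 10 Adam, 14 Adamts and 5 Adamtsl genes. The cells came from the fat around the aorta of mice of the strain labelled c57/bl, aged 8 weeks, with no treatment, and were sorted without culture as CD144- and CD45- cells positive for CD29 and Sca1. A full-length cDNA library was sequenced from each cell. The series describes 94 cells, of which 85 were in the table and 9 were not analysed here. The labels tie no cell to an animal, so all cells were 1 sample and no comparison below carries a test or a p value.

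Matrix metalloproteases (MMPs) are zinc enzymes that cut collagens, gelatin and other matrix proteins, and most are secreted or displayed as inactive proenzymes. ADAM proteins are membrane-bound relatives that release receptors, ligands and adhesion proteins from the cell surface, whereas ADAMTS enzymes are secreted and cut proteoglycans, procollagens and other matrix proteins. ADAMTS-like proteins share the ancillary domains of ADAMTS enzymes but lack the protease, and several bind fibrillin microfibrils. The TIMPs inhibit these enzymes by occupying the active site, and in the vessel wall the balance of proteases and TIMPs is known for its part in matrix turnover.

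The cells were split by decorin (Dcn), a small proteoglycan of fibroblasts. Cells with a deposited Dcn value of at least 1000 were called stromal, and this gave 58 stromal and 27 other cells. The values nearest the threshold were 269 and 6521, and Dcn was above 0 in every cell. Deposited values are labelled normalized read counts. In part of the genes they were whole reads times a factor shared by a group of genes in a cell. In the remaining genes, Timp3, Adam15 and Adamtsl4 among them, they were whole reads without a factor. The reads could thus be recovered, and detection is given as at least 10 recovered reads unless stated otherwise. Recovered reads per cell lay between 1146945 and 4776510, with a median of 2963854 in stromal and 2714449 in other cells. Stromal cells had a median of 2813 genes above 0 and other cells 1416. Of the other cells, 24 held at least 3 of 15 endothelial markers at a value of at least 100, even though the sort was against CD144, the product of Cdh5. Of the 7 stromal markers, at least 4 reached 100 in 56 stromal cells and in 0 other cells. Dcn, which defines the classes, is 1 of these 7, so this count is not independent of the split. Markers of immune cells (2 of 10 in the table) reached 10 reads in 3 stromal and 0 other cells, those of mural cells (5 of 8) in 12 and 3, the adipocyte marker (1 of 6) in 1 and 0, and at least 3 of 5 mesothelial markers in 2 and 0. The part of these markers in the results was not tested. Stromal cell 50 stood apart, with 69 recovered Dcn reads multiplied by 94.5 in the table, 16197 reads of the endothelial gene Kdr and 850 genes above 0. The other stromal cells had at least 18172 Dcn reads, so results are given without cell 50 where it bears on them.

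All 44 members were above 0 in at least 1 stromal cell, compared with 23 in at least 1 other cell, while 96.1% and 56.6% of all 16069 genes were. At 10 reads the counts were 42 (95.5%) and 14 (31.8%), compared with 85.3% and 44.8% of all genes. A further 9 members appeared in other cells only below 10 reads (11.8% of all genes), and 21 (47.7%) were at 0 in every other cell, as were 43.4% of all genes. The shares at 0 in every other cell were thus close for the members and for all genes. A stromal cell held between 3 and 19 members above 0, with a median of 10 (SD over cells 3.35), and an other cell held between 1 and 8, with a median of 3 (SD 1.86). At 10 reads the medians were 9 and 2. Other cells also had fewer genes in all, and members per 100 genes above 0 had a median of 0.343 in stromal and 0.258 in other cells, with ranges of 0.213 to 0.681 and 0.109 to 0.741 that overlapped. The plot of members against genes shows that the stromal cell with 19 members did not have the most genes.

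**Figure D1:**
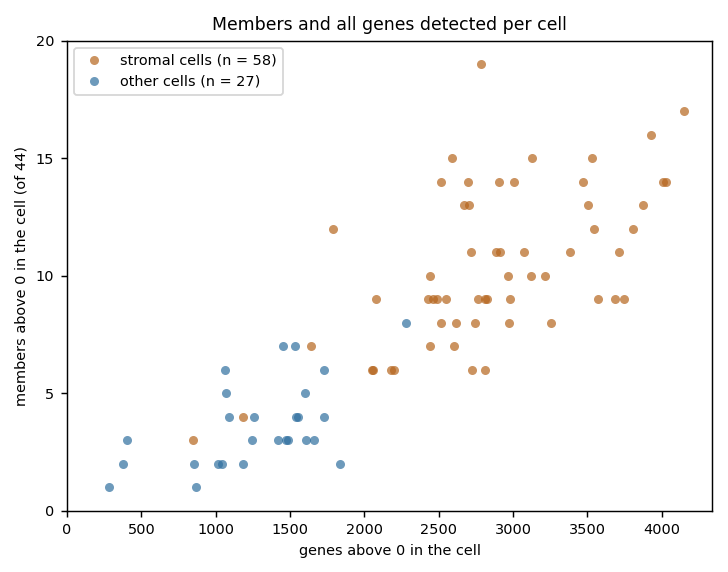
Members above 0 (of 44, vertical axis) against all genes above 0 (horizontal axis) in each of 58 stromal and 27 other cells, with 1 point per cell. Stromal cells held 3 to 19 members and other cells 1 to 8, and cells with more genes held more members.

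Levels were compared as the mean of log2(deposited value + 1) over the cells of a class, and a member was called where the means differed by at least 1. Of the 34 members above 0 in at least 3 cells, 18 were higher in stromal cells by this rule and 3 in other cells. Among all 11478 genes with the same filter, 35.6% were higher in stromal and 2.84% in other cells, against 52.9% and 8.82% of the 34 members. With the filter raised to 10 cells, 16 of 24 members and 60.3% of all such genes were higher in stromal cells, and 3 members and 3.69% of genes were higher in other cells. A gene found mainly in stromal cells passes a filter on cells through that class, so the counts over filtered members are given only as a description. Over all 44 members the median difference, stromal minus other, was 0.65 on the log2 scale, compared with 0.32 over all genes. The share of cells above 0 was larger among stromal cells for 39 of 44 members (88.6%) and for 83.5% of all genes, so most genes shared this direction. The 3 members higher in other cells were Timp4, Adamts1 and Adamts9. Single cells varied widely, and of the 21 called members 5 had a difference above the larger of the SDs over cells, namely Timp2, Mmp2, Adamts5, Adamts2 and Mmp23. For the remaining 16, Timp4 among them, the classes differed by less than the spread over cells of the more variable class.

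**Figure D2:**
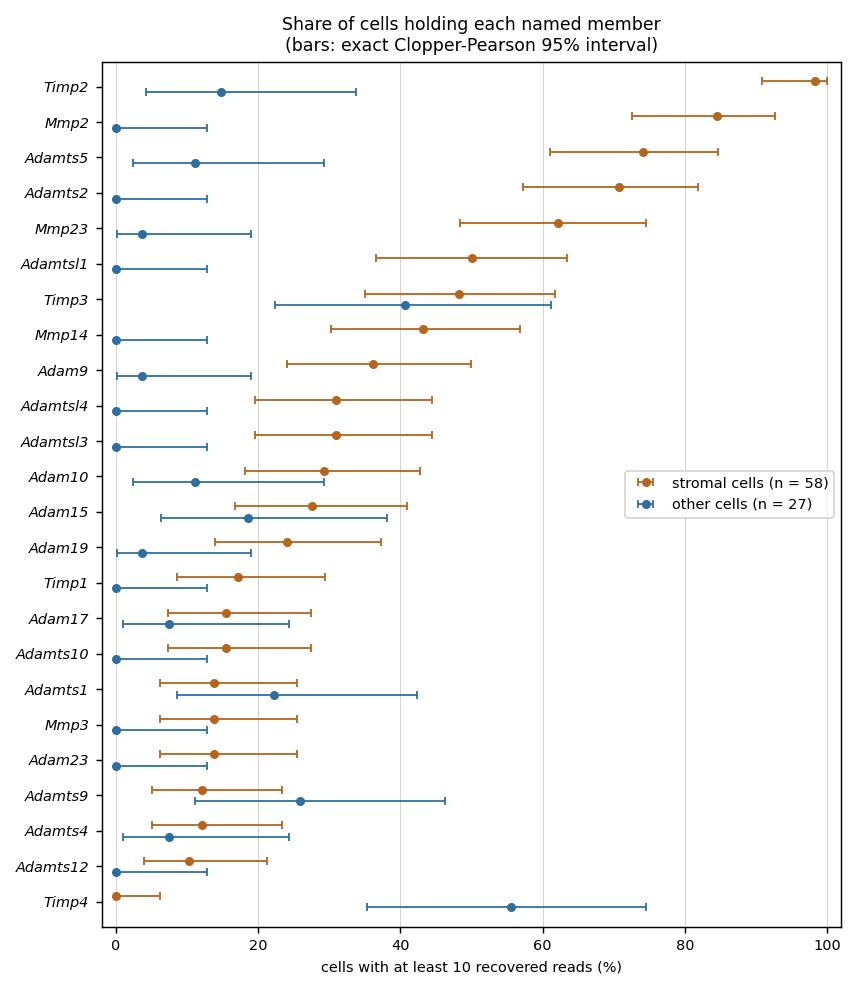
Percent of cells with at least 10 recovered reads (horizontal axis) for the 24 members above 0 in at least 10 cells, in 58 stromal and 27 other cells. Points are shares and bars exact Clopper-Pearson 95% intervals, which cover counting error only. Timp2 (98.3%) and Mmp2 (84.5%) lead in stromal cells, and Timp4 is at 55.6% of other cells and 0% of stromal cells.

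Of the inhibitors, Timp2 was widespread in stromal cells, Timp4 was found mainly in other cells and Timp3 in both. Timp2, which inhibits MMPs and also joins MMP14 in activating the MMP2 proenzyme, was above 0 in all 58 stromal cells. Its deposited values in stromal cells were 58.6 at the lowest (in cell 50), 3360 at the median and 35246 at the highest. In other cells its values were 0, 0 and 4068. It reached 10 reads in 57 of 58 stromal cells (98.3%, 95% interval 90.8% to 100%) and in 4 of 27 other cells (14.8%, 4.19% to 33.7%). The stromal cell that did not reach 10 reads was cell 50, with 8 reads, so that 57 of 57 remained without it. The mean log2 level was 11.75 ± 1.62 (SD, 58 cells) in stromal and 1.81 ± 3.28 (SD, 27 cells) in other cells, a difference of 9.95. Timp2 had the smallest SD over cells among the members widespread in stromal cells, compared with 4.24 for Mmp2 and 4.88 for Adamts5.

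Timp4, the inhibitor best known from heart, vessels and fat, had the reverse distribution. Its values in other cells were 0 at the lowest, 29.5 at the median and 17774 at the highest, and 15 of 27 other cells reached 10 reads (55.6%, 35.3% to 74.5%). In stromal cells the values were 0, 0 and 8.56. Although 19 of 58 stromal cells were above 0, none held more than 8 reads, and 0 of 58 reached 10 reads. A count of 0 taken to allow up to 3 cells gives a share of up to 5.17%, and the exact interval reaches 6.16%. Mean log2 levels were 0.65 ± 1.0 (SD) in stromal and 6.39 ± 5.89 (SD) in other cells, a difference of -5.74. Of the other cells, 13 held at least 100 reads. All 15 other cells with Timp4 held the fatty acid transporter Cd36, which 25 of 27 other cells held, and 12 of them held Cdh5, which 21 of 27 held.

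Timp3, which binds to the matrix and inhibits ADAM17 and the aggrecanases as well as MMPs, was present in both classes. It reached 10 reads in 28 of 58 stromal cells (48.3%, 35% to 61.8%) and in 11 of 27 other cells (40.7%, 22.4% to 61.2%). Its values were 0, 6.5 and 6695 (lowest, median and highest) in stromal and 0, 0 and 45302 in other cells. Where it was above 0, the median value was 2451 in stromal and 5624 in other cells. Mean log2 levels were 5.46 ± 5.61 (SD) and 5.25 ± 6.35 (SD). The difference of 0.21 was small beside these SDs and took values between -0.88 and 0.77 under the other settings, so no direction is given. Timp1, a secreted inhibitor that responds to growth factors and cytokines in many cells, was found in 10 of 58 stromal cells (17.2%, 8.59% to 29.4%), with a highest value of 6982 and 46.6% of its reads in 1 cell. It was at 0 in all 27 other cells, where the allowance of 3 cells gives a share of up to 11.1% and the exact interval reaches 12.8%.

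Seen per cell, the Timp genes differed in kind between the classes. Per kb of merged exon, Timp2 had the most recovered reads of the 4 inhibitors in 48 of 58 stromal cells, Timp3 in 5 and Timp1 in 4, and 1 cell (cell 50) had none of them at 10 reads. In the other cells Timp4 led in 12, Timp3 in 8 and Timp2 in 2, and 5 had none at 10 reads. Reads of Timp2 per kb exceeded those of Timp4 in 58 of 58 stromal cells, whereas Timp4 exceeded Timp2 in 17 of 27 other cells and Timp2 exceeded Timp4 in 9. A second inhibitor was common in stromal cells, of which 23 held 1 Timp gene at 10 reads, 30 held 2 and 4 held 3. Among other cells 14 held 1 and 8 held 2. Timp3 and Timp4 were found together in 6 other cells, which was 54.5% of the 11 cells with Timp3 and 40% of the 15 with Timp4. No other cell held both Timp4 and Timp2 at 10 reads, but only 4 of 27 held Timp2.

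**Figure D3:**
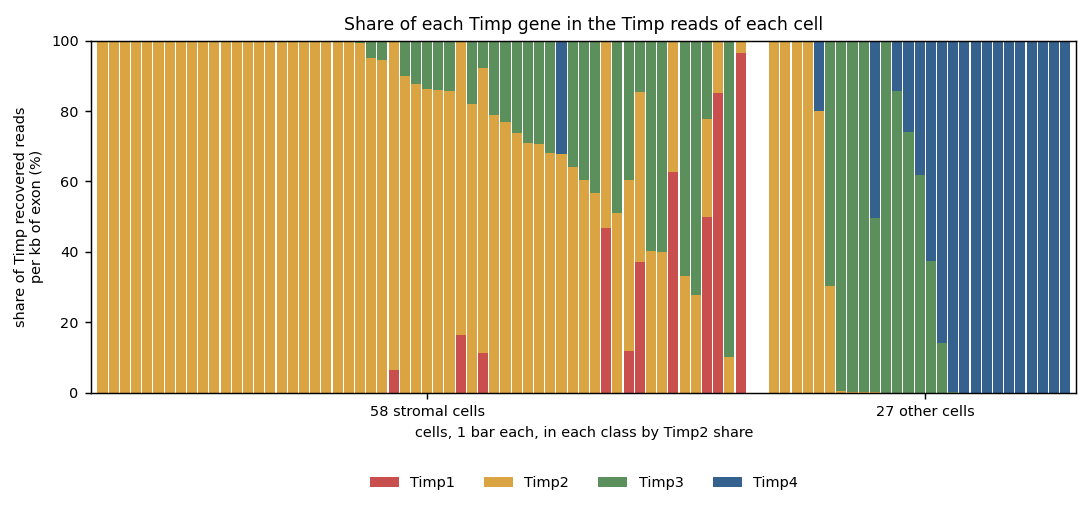
Share of each Timp gene in the recovered Timp reads per kb of exon (vertical axis, percent), with 1 bar per cell for 58 stromal and 27 other cells ordered by the Timp2 share. Timp2 fills most stromal bars, with a median share of 87%, whereas Timp4 (median 50.5%) and Timp3 fill most bars of the other cells.

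The promoters of Timp2, Timp3 and Timp4 are shown with that of Mmp3, which was confined to few cells. The promoter of Timp1 is not shown. Each is the 250 bases before the RefSeq start of the gene in mouse build GRCm38.p6, 5′ to 3′ on the strand of the gene, for Timp2 chr11:118355412-118355661 (minus strand), Timp3 chr10:86300162-86300411 (plus strand), Timp4 chr6:115252206-115252455 (minus strand) and Mmp3 chr9:7445572-7445821 (plus strand). Capitals mark the GC box GGGCGG, the CCAAT box, the TATA box TATAAA and the AP-1 motif TGANTCA, searched on both strands, so that a GC box on the opposite strand reads CCGCCC.
Timp2: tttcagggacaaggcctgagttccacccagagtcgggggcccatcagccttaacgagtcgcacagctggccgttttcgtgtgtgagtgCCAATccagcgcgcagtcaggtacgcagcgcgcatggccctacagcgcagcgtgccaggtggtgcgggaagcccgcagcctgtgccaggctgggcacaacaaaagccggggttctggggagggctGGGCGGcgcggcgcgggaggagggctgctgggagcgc
Timp3: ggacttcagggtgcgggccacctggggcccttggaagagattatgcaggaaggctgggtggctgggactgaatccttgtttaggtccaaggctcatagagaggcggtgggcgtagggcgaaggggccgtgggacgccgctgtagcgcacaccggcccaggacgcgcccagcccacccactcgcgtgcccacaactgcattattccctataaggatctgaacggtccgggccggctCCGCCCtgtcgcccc
Timp4: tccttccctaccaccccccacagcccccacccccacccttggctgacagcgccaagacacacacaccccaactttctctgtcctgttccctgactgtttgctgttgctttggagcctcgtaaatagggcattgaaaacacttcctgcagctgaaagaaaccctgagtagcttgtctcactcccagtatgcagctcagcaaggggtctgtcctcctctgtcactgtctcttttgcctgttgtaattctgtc
Mmp3: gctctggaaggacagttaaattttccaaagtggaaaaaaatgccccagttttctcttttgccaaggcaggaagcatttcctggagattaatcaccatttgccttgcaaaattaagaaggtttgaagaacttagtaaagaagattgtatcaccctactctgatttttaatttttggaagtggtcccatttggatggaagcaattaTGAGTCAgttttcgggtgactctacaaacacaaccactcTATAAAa
Timp2 and Timp3, the inhibitors of stromal cells and of both classes, had 68% and 65.6% G or C with 21 and 18 CpG dinucleotides, while Timp4 had 53.6% and 2 and Mmp3 had 37.6% and 1. The median of all 32851 promoter windows was 52.4% and 6. The Timp2 window held 1 GC box and 1 CCAAT box, that of Timp3 1 GC box and that of Timp4 none of the motifs searched. The Mmp3 window held 1 AP-1 motif and 1 TATA box. That of Timp1, not shown, held a GC box and a CCAAT box. The 32851 windows could include more than 1 per gene. Of the 44 members, 27 had a promoter window, with 1 taken per member. A GC box was in 17 of these 27 and in 32.7% of all windows, a CCAAT box in 6 and 33.8%, a TATA box in 5 and 12.4%, and an AP-1 motif in 2 (Mmp3 and Mmp10) and 6.75%. These are matches of letters, and no binding was measured.

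Of the MMPs, the gelatinase Mmp2 was the most widespread. Its deposited values in stromal cells were 0 at the lowest, 2424 at the median and 20634 at the highest, and in other cells 0, 0 and 9.57. Mmp2 reached 10 reads in 49 of 58 stromal cells (84.5%, 72.6% to 92.7%). In 4 other cells it was above 0 but with at most 8 reads, so 0 of 27 reached 10 reads (exact interval up to 12.8%). Mean log2 levels were 9.74 ± 4.24 (SD) and 0.44 ± 1.10 (SD), a difference of 9.29. All 49 cells also held at least 100 reads, and cell 50 was among the 9 stromal cells below 10.

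The membrane-type MMPs are anchored at the cell surface, and MMP14 among them activates the MMP2 proenzyme and cuts fibrillar collagen. Mmp14 reached 10 reads in 25 of 58 stromal cells (43.1%, 30.2% to 56.8%) and in 0 of 27 other cells. Values were 0, 2.46 and 3835 in stromal cells (lowest, median and highest), and the single other cell above 0 had a value of 2.82. The mean log2 difference was 3.68. The remaining membrane-type members were rare. Mmp16 was above 0 in 4 stromal cells and in 1 other cell with 4 reads, Mmp15 in 1 cell of each class and Mmp17 in 1 stromal cell.

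Mmp2, Mmp14 and Timp2, whose products form the complex that activates the MMP2 proenzyme, reached 10 reads together in 23 of 58 stromal cells and in 0 of 27 other cells. All 49 stromal cells with Mmp2 held Timp2, but so did 57 of 58 stromal cells. Of the 25 cells with Mmp14, 23 held Mmp2 (92% of the Mmp14 cells and 46.9% of the Mmp2 cells). Reck, a membrane-anchored inhibitor of MMP14, was in 15 of these 25 cells and in 30 stromal cells in all. Furin, the convertase that cuts the MMP14 propeptide, was in 2 of the 25 and in 5 stromal cells.

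Mmp23, a membrane-anchored MMP that lacks the hemopexin domain, reached 10 reads in 36 of 58 stromal cells (62.1%, 48.4% to 74.5%) and in 1 of 27 other cells (3.7%), where it had 14 reads. Its values were 0, 303 and 4641 in stromal and 0, 0 and 18.1 in other cells, and the mean log2 difference was 5.70. Of the 36 stromal cells with Mmp23, 32 (88.9%) also held Mmp2, which was in 49 of 58 stromal cells.

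Mmp3, or stromelysin-1, which cuts proteoglycans and fibronectin and activates other proenzymes, was confined to few cells, with levels there that varied widely. Where it was above 0, its median deposited value in stromal cells was 548. Its factor had a median of 0.212, so its recovered reads were mostly larger than its deposited values. It reached 10 reads in 8 of 58 stromal cells (13.8%, 6.15% to 25.4%), while in other cells it had at most 8 reads. The highest stromal value was 31741 and the median 0. A single cell held 72.3% of all Mmp3 reads, 108079 in number, so the mean rests on that cell. The log2 difference was 1.29. Of the 8 cells with Mmp3, 4 also held Timp1, which was in 10 stromal cells. Mmp19 was found in 6 stromal cells and no other cell, with values up to 3722. The remaining MMP genes, Mmp10, Mmp11 and Mmp21, were above 0 in at most 3 cells each.

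**Figure D4:**
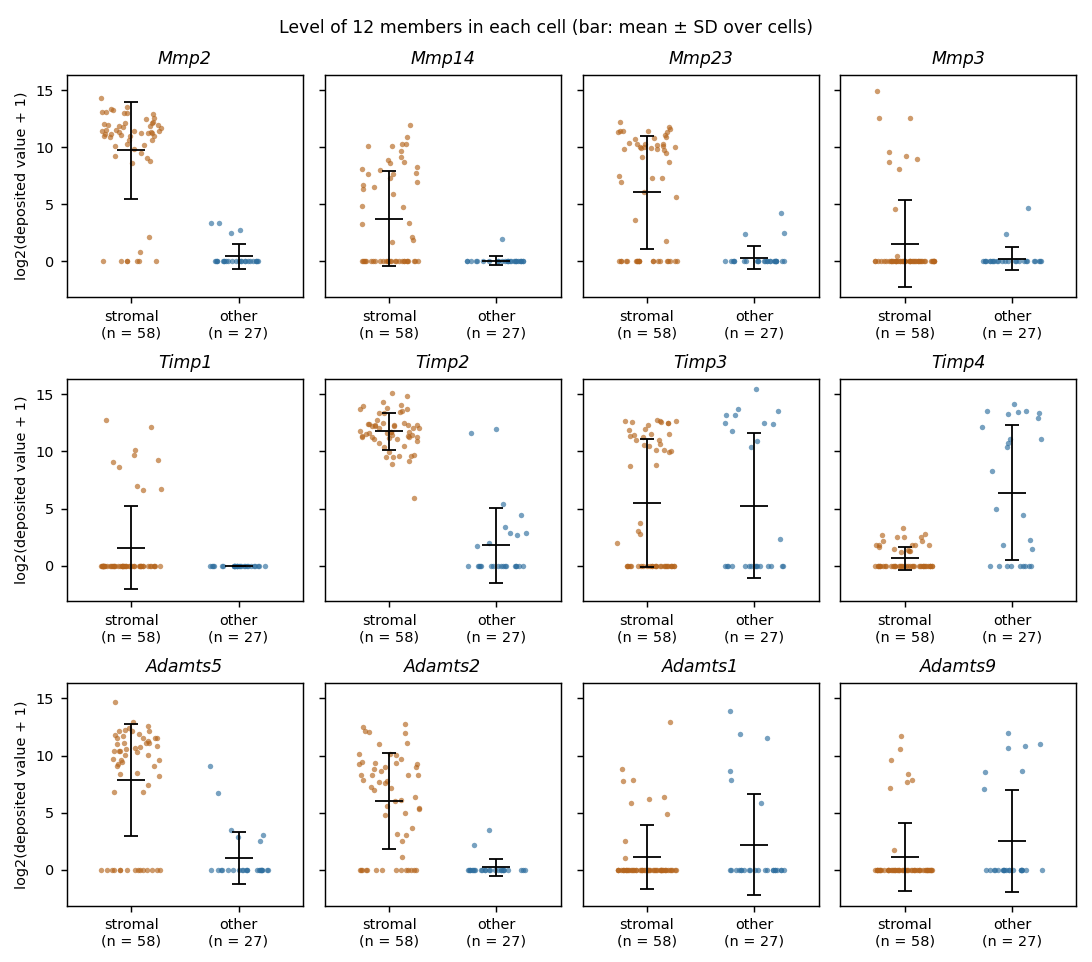
log2(deposited value + 1) (vertical axis) of 12 members in each of 58 stromal and 27 other cells, with 1 point per cell and the mean ± SD over cells in black. Timp2 and Mmp2 are high in most stromal cells and low in most other cells, but the classes overlap for both genes. Timp3 is high in part of both classes, Timp4 is high only in other cells, and Mmp3 is high in few stromal cells.

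Adamts5 is an aggrecanase that also cuts versican, and it was the leading proteoglycanase of the stromal cells. It reached 10 reads in 43 of 58 stromal cells (74.1%, 61% to 84.7%) and in 3 of 27 other cells (11.1%, 2.35% to 29.2%). Values were 0, 1066 and 26997 in stromal cells and 0, 0 and 551 in other cells. Mean log2 levels were 7.84 ± 4.88 (SD) and 1.03 ± 2.29 (SD), a difference of 6.81. Its substrate Vcan, the large proteoglycan versican, was in 27 stromal cells and 0 other cells at 10 reads, and 20 stromal cells held both genes (46.5% of the Adamts5 cells and 74.1% of the Vcan cells).

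Adamts2 removes the amino-terminal propeptide of fibrillar procollagens. It reached 10 reads in 41 of 58 stromal cells (70.7%, 57.3% to 81.9%) and in 0 of 27 other cells. Values were 0, 143 and 6841 in stromal cells and at most 9.99 in other cells, and the mean log2 difference was 5.81. All 41 cells held Col3a1, as did 57 of 58 stromal cells. Pcolce, which enhances removal of the carboxy-terminal propeptide, was in 37 of the 41 (90.2%) and in 50 of 58 stromal cells. Adamts5 and Adamts2 were together in 31 stromal cells, which was 72.1% and 75.6% of the cells with each.

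Adamts1 and Adamts9, which both cut versican, were the proteases called higher in the other cells. Adamts9 reached 10 reads in 7 of 27 other cells (25.9%, 11.1% to 46.3%) and in 7 of 58 stromal cells (12.1%, 4.99% to 23.3%). Its highest values were 3999 and 3345, and where it was above 0 the median was 1632 in other and 278 in stromal cells. The log2 difference was -1.43. Cell 50, with 1366 Adamts9 reads, was among the 7 stromal cells, and without it 6 of 57 remained and the difference was -1.60. With a pseudocount of 10 it fell just short of a call, and it was also not called by a rule of 20 percentage points or of a difference of 2. The only stromal cell with at least 3 endothelial markers at 100 held 3047 Adamts9 reads, with 2941 of Mmp2 and 2017 of Timp2.

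Adamts1 reached 10 reads in 6 of 27 other cells (22.2%, 8.62% to 42.3%) and in 8 of 58 stromal cells (13.8%, 6.15% to 25.4%). The highest values were 15160 and 7748, and the medians where it was above 0 were 1715 in other and 78.4 in stromal cells. The intervals of the shares overlapped for both genes. The Adamts1 difference of -1.10 lay close to the size needed for a call and came to -0.53 with a Dcn threshold of 100, to -0.91 when stromal cells were defined by 4 of 7 markers and to -0.87 with a pseudocount of 10. A single cell held 46.2% of the Adamts1 reads. Adamts1 and Adamts9 were together in 2 other cells and in no stromal cell, and 11 of 27 other cells held at least 1 of them. Adamts4, an aggrecanase, reached 10 reads in 7 stromal and 2 other cells, with a difference of 0.23.

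Among the remaining ADAMTS enzymes, Adamts10 (9 stromal cells at 10 reads, highest value 1005) and Adamts12 (6 cells, highest value 418) were at 0 in all other cells. Their differences were 1.05 and 0.81. Adamts15, Adamts8, Adamts7, Adamts17, Adamts14, Adamts6 and Adamts19 were each above 0 in at most 4 cells, all stromal.

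The ADAMTS-like genes were found mainly in stromal cells. Adamtsl1 reached 10 reads in 29 of 58 stromal cells (50%, 36.6% to 63.4%) and was at 0 in all 27 other cells. Its values were 0, 6.99 and 4657 in stromal cells, and the difference was 4.57. Adamtsl3 and Adamtsl4, the latter a binding partner of fibrillin-1, each reached 10 reads in 18 stromal cells (31%, 19.5% to 44.5%) and in 0 other cells, with differences of 2.69 and 2.70 and highest values of 4143 and 6934. Of the 29 cells with Adamtsl1, 23 (79.3%) held Fbn1, which encodes fibrillin-1 and was in 43 stromal cells. Adamtsl3 and Adamtsl1 were together in 8 stromal cells. Adamtsl2 was in 4 stromal cells at 10 reads and Adamtsl5 was above 0 in 2 stromal cells.

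The ADAM genes were each found in a minority of the cells of either class. Adam10, which releases the Notch ectodomain among other substrates, reached 10 reads in 17 of 58 stromal cells (29.3%, 18.1% to 42.7%) and in 3 of 27 other cells (11.1%, 2.35% to 29.2%). Adam17, which sheds tumor necrosis factor, reached 10 reads in 9 stromal (15.5%) and 2 other cells (7.41%), with a difference of 0.45. Both are widely expressed genes, and 2 stromal cells held both. The highest Adam10 values were 25712 in stromal and 4724 in other cells, with a difference of 1.26, and 38.6% of its reads were in 1 cell.

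Adam9 reached 10 reads in 21 of 58 stromal cells (36.2%, 24% to 49.9%) and in 1 other cell, with a difference of 2.66. Adam15 reached 10 reads in 16 stromal (27.6%) and 5 other cells (18.5%, 6.3% to 38.1%), and its difference of 1.02 was at the limit of a call. Adam19 was at 10 reads in 14 stromal cells (24.1%) and 1 other cell, with a difference of 1.45. Adam23, which has no active protease and acts in adhesion, reached 10 reads in 8 stromal cells, and Adam33 in 9. Both were at 0 in all other cells, and their differences were 0.90 and 1.21. Adam22, Adam12 and Adam30 were above 0 in at most 5 stromal cells and in no other cell.

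In all, 20 members were above 0 in fewer than 10 cells, between 1 and 9 each, and 16 of these were at 0 in every other cell. The highest value of a rare member ranged from 6 to 3784. Only Mmp15 among them reached 10 reads in an other cell.

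**Figure D5:**
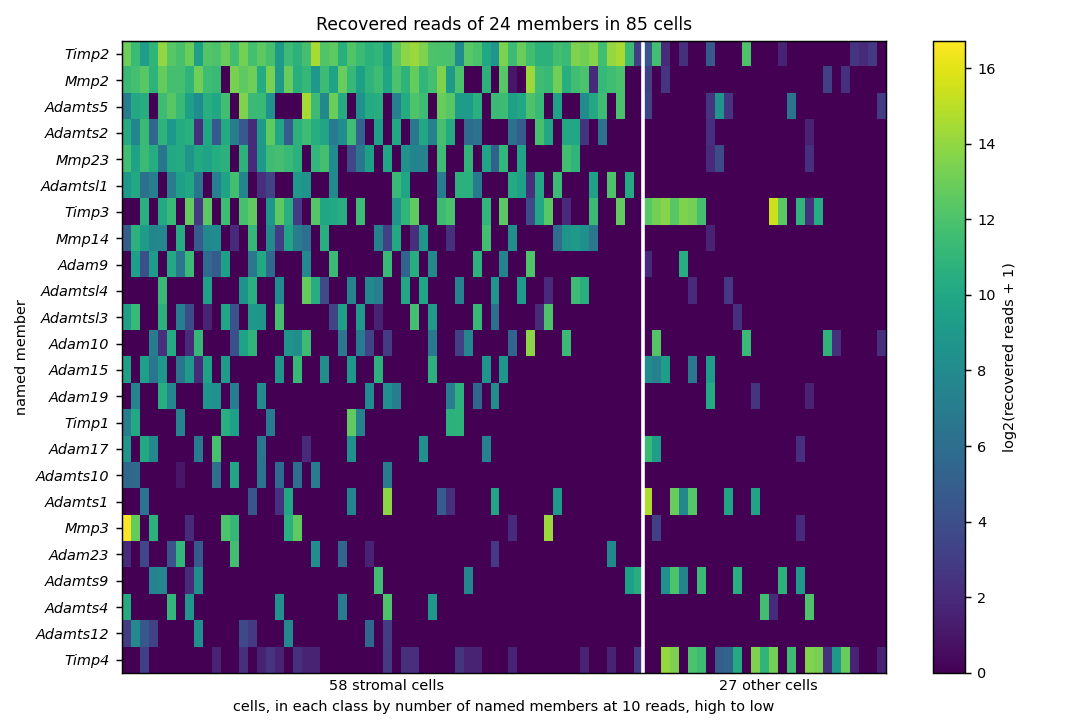
log2(recovered reads + 1) (color) of the 24 members above 0 in at least 10 cells (rows) in 58 stromal and 27 other cells (columns), ordered in each class by the number of these members at 10 reads. The top rows are filled over most stromal cells, from Timp2 in 57 cells to Adamtsl1 in 29, whereas the other cells are filled mainly in the rows of Timp3 (11 cells) and Timp4 (15 cells).

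To compare levels between genes, recovered reads were scaled to the total of the cell (as CPM), divided by the merged exon length in kb and averaged over the cells of a class. In stromal cells the order of this level was Timp2 (527), Mmp3 (440), Mmp2 (396), Mmp23 (208), Timp3 (112), Timp1 (92.8) and Adamts5 (66.5), where the Mmp3 and Timp1 means rest largely on single cells. Timp4 came to 0.076, the rank of 43 among 44. In other cells the order was Timp3 (310), Timp4 (206), Adamts1 (111), Adam10 (26.3), Timp2 (25.8), Adamts4 (22.3) and Adamts9 (21.8), and Mmp2 came to 0.106. Below Timp4 these means rest on few other cells, as 6 held Adamts1 at 10 reads, 3 Adam10, 4 Timp2, 2 Adamts4 and 7 Adamts9. A single other cell held 26808 Adamts1 reads. SDs over cells were of similar size to the levels or larger, for example 491 for Timp2, 454 for Mmp2 and 2539 for Mmp3 in stromal cells and 601 for Timp3 and 299 for Timp4 in other cells. No neighbours among these genes differed by more than the larger SD of the pair. The leading member of each cell by this measure was Timp2 in 27 stromal cells, Mmp2 in 13, Mmp3 in 6, Mmp23 in 4, Timp1 in 3, Adamts5 in 2 and Adamts1, Adamts9 or Mmp14 in 1 each. In the other cells it was Timp4 in 9, Timp3 in 7 and Adamts1 in 2, and 4 had no member at 10 reads.

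The Timp genes held a median of 35.9% of the summed deposited values of all members in stromal cells (3.96% to 88.9%, SD 22) and of 75.6% in other cells (0.185% to 100%, SD 35.2). The lowest stromal share was that of cell 50. By recovered reads the median shares were 36.3% and 72.1%. These shares are not per length and the ranges overlapped widely. Recovered reads of all members, as CPM of the cell, ranged from 1203 (in cell 50) to 40798 in stromal cells, with a median of 6298. In other cells they ranged from 1.37 to 15917, with a median of 2333.

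Within the other cells, every member at 10 reads lay in the 24 cells with at least 3 endothelial markers. The remaining 3 cells had between 285 and 405 genes above 0 and no member at 10 reads. Among the 24, Timp4 was at 10 reads in 15, Timp3 in 11 and Adamts9 in 7. Within the stromal cells, the 2 with at least 3 mesothelial markers both held Timp2, Adamtsl1 and Adamts9, which 57, 29 and 7 of 58 held. Neither of the 2 held Mmp2 at 10 reads, which 49 of 58 held, nor several other members, Mmp14 and Timp3 among them. These genes were named after their values were seen. All 12 stromal cells with a mural marker held Timp2, Mmp2 and Adamts2, which 57, 49 and 41 of 58 stromal cells held. The 3 other cells with a mural marker held Timp4, as did 15 of 27 other cells. The markers differed between the classes, with Abcc9 at 10 reads in 9 stromal and 0 other cells and Rgs5 in 0 and 3.

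Genes around the families were described from 3 lists, with calls and medians over genes above 0 in at least 3 cells. With this filter, 35.6% and 2.84% of all genes were called higher in stromal and in other cells. With the filter at 10 cells, these shares were 60.3% and 3.69%. Of 14 protease inhibitors and cofactors outside the families, 13 were in the table, all above 0 in at least 3 cells. Of these 13, 10 were called higher in stromal and 0 in other cells, with a median log2 difference of 2.62. The largest differences were those of Serpinf1 (10.72), a secreted serpin, and of Pcolce (9.55) and Pcolce2 (9.25), the procollagen C-proteinase enhancers. Of 21 activators and other matrix proteases, 19 were in the table and 18 were above 0 in at least 3 cells. Of these 18, 13 were higher in stromal and 0 in other cells (median 4.01). They were led by the secreted serine proteases Htra3 (9.28) and Htra1 (7.91) and by Plat (6.96), the tissue plasminogen activator. Of 26 substrates, 23 were in the table and 18 were above 0 in at least 3 cells. Of these 18, 11 were higher in stromal and 1 in other cells (median 2.37). The leading substrates were Col3a1 (10.86), Fn1 (10.17) and Col1a1 (9.21), and the substrate higher in other cells, named after its value was seen, was the basement membrane collagen Col4a2 (-3.54). Reck and Vcan were at 0 in all 27 other cells, and Reck had a difference of 4.48.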

How the data were processed

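Single cells were dispensed and amplified with a full-length cDNA kit, and 1 library was made per cell. The submitters' processing notes name the mm9 build and the tools HISAT2 2.0.5 (alignment), SAMtools 1.4 and StringTie 1.3.3 (assembly). The authors kept cells of sufficient aligned reads and report the default scaling of scater for normalization. The deposited signal values, for 16069 genes in 85 cells, were normalized by the submitters before deposit and are labelled normalized read counts. The sources used here do not describe the factors shared by groups of genes, given below, or why other genes are whole reads. How the deposited values came from the reported scaling is thus not known. The counting program and strand setting are not given in the sources used here.

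In the table, the 9942 genes above 0 in fewer than 10 cells were whole numbers, among them 20 members. In 5404 genes the values were whole reads times a factor of 0.0157 to 94.5 that was shared by 1 of 13 groups of genes in a cell. Dividing by this factor gave recovered reads. This step was chosen after the values were seen. Of 144272 values, 4 were rounded, as they missed a whole number by more than a relative 2e-09 and by more than 1e-08 reads. In 20 of 1105 combinations of cell and group, under 10 values were at hand, which makes the factor less sure. The recovery and the call rule were tried on simulated data. The simulated factors spanned a narrower range than those of the table, so the extreme factors were not covered.

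No animal is named, so there was no test. Levels were log2(deposited value + 1). A difference of 1 in the means, for genes above 0 in at least 3 cells, was a call. Shares have exact Clopper-Pearson 95% intervals, which cover counting error only, as do limits of 3 cells for a share of 0. PCR reads without molecular identifiers are not independent molecules. Doublets were not called, as each well was to hold 1 sorted cell. Named members were those above 0 in at least 10 cells and all Timp, gelatinase and membrane-type genes, rare members being named for completeness, with the 3 genes of each context list that differed most. The members and lists were chosen with earlier results of these data known. Exon lengths were those of a GRCm38 annotation, a build other than mm9, matched by symbol for 44 of 44 members, and promoters were from RefSeq. Timp1, Timp3 and Timp4 lie within the Syn1, Syn3 and Syn2 genes, and reads of overlapping genes may not be told apart. Alternatives changed the Dcn threshold, the cells kept, scaling, pseudocount, filter and rule for a call, and thinned each cell to 1146945 recovered reads. Python 3.11.15, numpy 2.4.6, pandas 2.3.3, scipy 1.17.1 and matplotlib 3.10.9 were used.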

Additional observations from a re-analysis of the deposited data

How the results depend on the processing

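The number of members higher in stromal cells was 18 as reported. It came to 11 with a pseudocount of 10, to 10 with a rule of 20 percentage points in the share of cells above 0 and to 10 with a difference of 2. The number higher in other cells was 3 as reported and 1, Timp4, under each of these settings. Over all genes, these settings called 20.5% and 1.82%, 25.4% and 1.11%, and 16.4% and 1.09% higher in stromal and other cells. The median difference was 1.04 over the members above 0 in at least 3 cells. It was 0.61 with a pseudocount of 10 and 0.65 with no filter on genes. The other 80 values of the comparisons, among them those without cell 50, with thinned reads and with a Dcn threshold of 1000 recovered reads, moved by less than the spread over cells or, for counts, stayed within 1.5 times. Of the differences of single members, 332 of 336 moved by less than the SD over stromal cells. This SD exceeded most of the differences themselves, so the count says little about calls. Adamts1 lost its call at a Dcn threshold of 100 (-0.53) and still counted as unmoved. Of the shares of cells, 542 of 576 stayed within the exact interval, the rest being mainly shares of low reads that were lost at thresholds of 10 or 100. A stromal definition of Dcn above 0 could not be run, since every cell was above 0. No paired analysis was possible because all cells were 1 sample.

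The data hold 1 condition and 85 cells of unstated animals, so the intervals do not cover variation between animals. With 27 other cells, the exact interval for a member found in none of them reaches 12.8%. A cell without reads of a gene may still hold its transcript. The other cells had fewer genes above 0 than the stromal cells, and this cannot be told apart from class.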
